A study of Mus musculus with 37 samples.

Results

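The cell cycle and DNA replication genes are a set of 39 named genes whose products copy DNA in S phase or separate chromosomes in mitosis. A gene entered through the array's transcript clusters, the groups of probes that read one transcript, if a cluster was annotated to that symbol alone, and where several were, the brightest on average was used. This gave 38 of the 39 genes, out of 19938 genes read in the same way. Ccnb1, the cyclin B1 gene, was not analysed here. Of the 38 genes, 16 act in replication (8 in licensing and the helicase, 5 in nucleotide supply and the sliding clamp, 3 in S phase entry and its checkpoint) and 22 act in mitosis (7 mitotic cyclins, kinases and their transcription factor, 8 at the kinetochore and spindle checkpoint, 5 spindle motors and microtubule factors, and 2 in the structure of chromosomes in dividing cells). The set was named without use of the values below, although it was proposed with results of these arrays known.

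The study gave mice dextran sodium sulphate (DSS), a detergent-like polymer that injures the colon lining, by mouth, and read mRNA of snap frozen colon on Affymetrix Mouse Gene 1.0 ST arrays. C57BL/6J wild-type mice (WT) were set beside B6.129S4-Timp1tm1Pds/J mice (KO), which carry a targeted allele of the gene of the metalloproteinase inhibitor Timp1, in an acute and a chronic phase, each with controls without colitis. There were 37 arrays, 1 per animal: 3 WT acute controls, 5 WT acute DSS, 3 KO acute controls, 6 KO acute DSS, and 5 each of WT chronic controls, WT chronic DSS, KO chronic controls and KO chronic DSS. The labels used here give the strain of all animals as C57BL/6J and give no age, sex, DSS dose or number of DSS days. Replicates are numbered below in accession order, which is a name only.

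As background, cells that leave G1 load the Mcm2 to Mcm7 ring at origins with the help of Cdc6, and Cdc45 joins the ring to make the active helicase. E2F factors, freed from the retinoblastoma proteins by cyclin E and its kinase, switch on the genes of replication, many of which carry E2F sites next to their start. Genes of mitosis are switched on later, by B-Myb and Foxm1 with the MuvB complex, through a CHR element (cell cycle genes homology region) that often stands beside CCAAT boxes. In the colon most dividing cells are the transit-amplifying cells of the lower crypt, while activated lymphocytes, fibroblasts and endothelial cells of the wall can divide too.

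The promoters of 6 members are shown because the letters marked in them were found at different rates in replication and mitotic genes. Mcm5, Mcm6 and Cdc45 are replication genes and Ccnb2, Cdk1 and Top2a are mitotic genes. Each sequence runs 5′ to 3′ on the gene's own strand from 160 bases before to 20 bases after the RefSeq start (GRCm38.p6). Capitals mark matches, on either strand, to CCAAT, to the CHR letters TTTGAA or TTCGAA, and to the E2F-type letters TTTNNCGC. Overlapping matches run together.
Mcm5 (chr8:75109349-75109528, plus strand): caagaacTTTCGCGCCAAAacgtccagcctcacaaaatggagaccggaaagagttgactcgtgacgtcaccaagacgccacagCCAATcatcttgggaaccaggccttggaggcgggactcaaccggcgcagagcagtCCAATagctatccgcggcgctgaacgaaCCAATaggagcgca
Mcm6 (chr1:128359686-128359865, minus strand): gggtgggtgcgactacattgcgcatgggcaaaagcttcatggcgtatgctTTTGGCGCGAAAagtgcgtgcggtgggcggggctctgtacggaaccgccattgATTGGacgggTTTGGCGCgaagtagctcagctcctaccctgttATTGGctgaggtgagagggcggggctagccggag
Cdc45 (chr16:18811953-18812132, minus strand): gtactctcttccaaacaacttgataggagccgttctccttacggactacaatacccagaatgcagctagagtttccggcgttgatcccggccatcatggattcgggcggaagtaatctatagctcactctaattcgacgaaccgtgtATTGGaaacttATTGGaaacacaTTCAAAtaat
Ccnb2 (chr9:70421535-70421714, minus strand): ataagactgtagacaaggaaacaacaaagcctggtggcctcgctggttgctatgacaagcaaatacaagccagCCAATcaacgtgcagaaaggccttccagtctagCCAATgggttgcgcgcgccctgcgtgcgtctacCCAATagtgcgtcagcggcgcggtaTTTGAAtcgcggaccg
Cdk1 (chr10:69352893-69353072, minus strand): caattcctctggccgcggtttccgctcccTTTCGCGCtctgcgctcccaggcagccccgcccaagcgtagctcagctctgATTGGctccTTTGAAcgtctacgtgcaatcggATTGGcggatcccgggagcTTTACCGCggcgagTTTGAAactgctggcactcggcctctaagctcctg
Top2a (chr11:99024170-99024349, minus strand): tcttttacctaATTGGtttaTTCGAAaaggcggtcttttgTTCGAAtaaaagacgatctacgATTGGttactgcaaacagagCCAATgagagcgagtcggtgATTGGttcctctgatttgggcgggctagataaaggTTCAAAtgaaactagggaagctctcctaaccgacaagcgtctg

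In Mcm5 and Mcm6, subunits of the helicase ring, the E2F-type letters occurred in overlapping pairs on opposite strands, beginning at positions -153 and -149 from the start in Mcm5 and at -110 and -106 in Mcm6. Ccnb2, the cyclin B2 gene, had CCAAT at -87, -54 and -21 and TTTGAA at 5, within the transcript. Cdk1, the kinase that cyclin B activates, held the letters of all 3 kinds. Cdc45 was a replication gene with the mitotic arrangement, since its window had CCAAT and TTTGAA and no TTTNNCGC.

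Promoter windows of 300 bases (250 before to 50 after the start) were at hand for 32 of the 38 members, all but Aurkb, Ccna2, Foxm1, Kif20a, Mcm4 and Tpx2. TTTGAA or TTCGAA stood in 13 of 17 mitotic windows (76.5%), in 3 of 15 replication windows (20%) and in 19.4% of the windows of all 27025 genes in the table. In each of those 13 mitotic windows CCAAT was present too, a pairing found in 7.7% of all windows. TTTNNCGC stood in 6 of 15 replication windows (40%), in 1 of 17 mitotic windows (5.88%) and in 5.27% of all windows. At least 2 matches to TTTNNCGC were found in 4 replication windows (26.7%), against 0.344% of all windows. These are letter matches and not measured sites, and no match says only that these letters are not in the window.

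**Figure D1:**
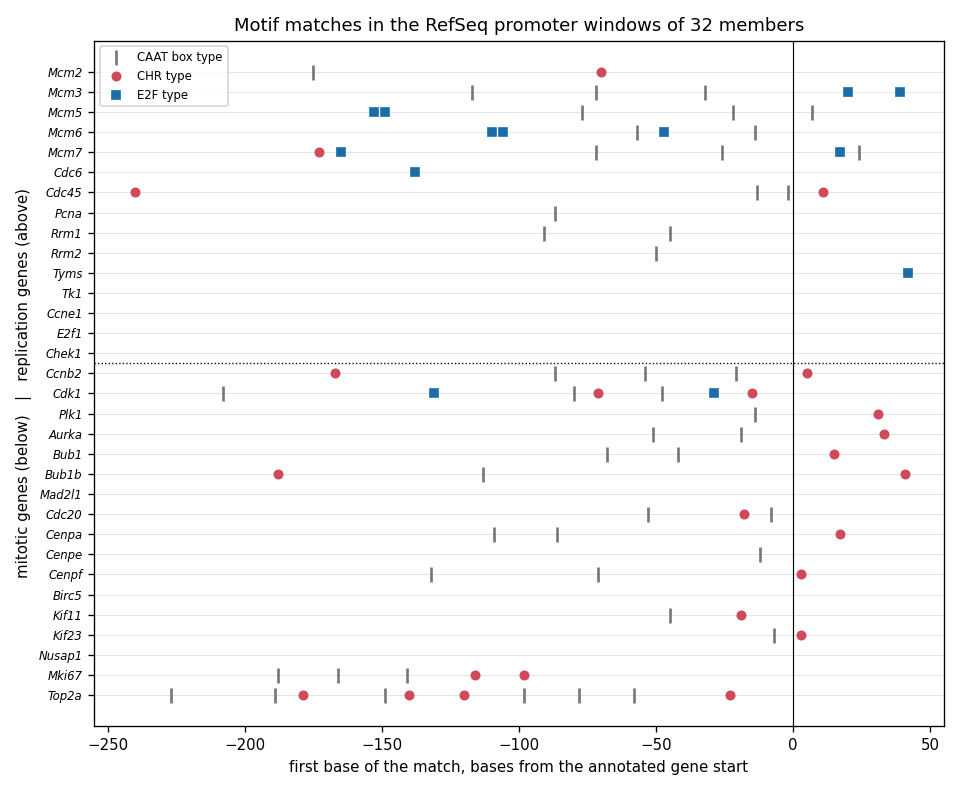
Position of each motif match in the promoter windows of 32 members, in bases from the annotated gene start (horizontal axis), 1 line per gene, replication genes above the dotted line. Grey bars are CCAAT, red circles the CHR-type letters and blue squares the E2F-type letters. The CHR-type matches lie in 13 of 17 mitotic genes and the E2F-type matches in 6 of 15 replication genes.

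The deposited log values ranged from 3.03 to 14.96 and array medians from 7.67 to 7.76, so that arrays shared a scale. Timp1 itself read 9.47 to 12.19 in WT acute DSS and 7.10 to 8.68 in KO acute DSS, and whether its probes lie in the deleted part was not tested. All 11 colon epithelium markers were measured, and the lowest of their means over the arrays was 10.54, against 8.15 for the median gene. Arrays of KO acute control replicate 2 and KO acute DSS replicate 4 had a mean level of Y-linked genes of 9.88 and 9.61, against at most 5.43 in every other array. Xist, a transcript of female cells, read 5.82 and 5.81 there and 11.76 or more in every other array. By these genes those animals were male and the others female, so both KO acute groups mix sexes. The titles number the animals in 4 styles, called numbering series 1 to 4 here. Series 1 holds every WT acute animal and KO acute DSS replicates 1 to 3, and series 2 holds every KO acute control and KO acute DSS replicates 4 to 6. Series 3 holds every WT chronic DSS animal and WT chronic control replicates 1 to 3, and series 4 holds the remaining chronic animals. The labels do not say what the styles mark.

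Levels of the 38 genes differed more from animal to animal than from group to group. The mean log2 level of the 38 genes ran from 8.76 to 9.98 over the 37 arrays, while the 8 group means lay between 9.08 ± 0.20 in KO chronic DSS (SD, n = 5) and 9.33 ± 0.40 in KO acute DSS (SD, n = 6). Differences between groups held 11.4% of the variance of that mean, 25.7% for the mean of the replication genes and 10.6% for the mean of the mitotic genes. With no difference between 8 groups the share would be 19.4% on average. Taken gene by gene, the median member had 24.7% (replication genes 32.4%, mitotic genes 16.1%), and the median gene of all 19938 had 45.9%. The median member ranged over 1.38 log2 units across arrays, and the median gene over 0.76. The tissue is bulk colon, in which fewer dividing cells and less RNA per dividing cell cannot be told apart.

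**Figure D2:**
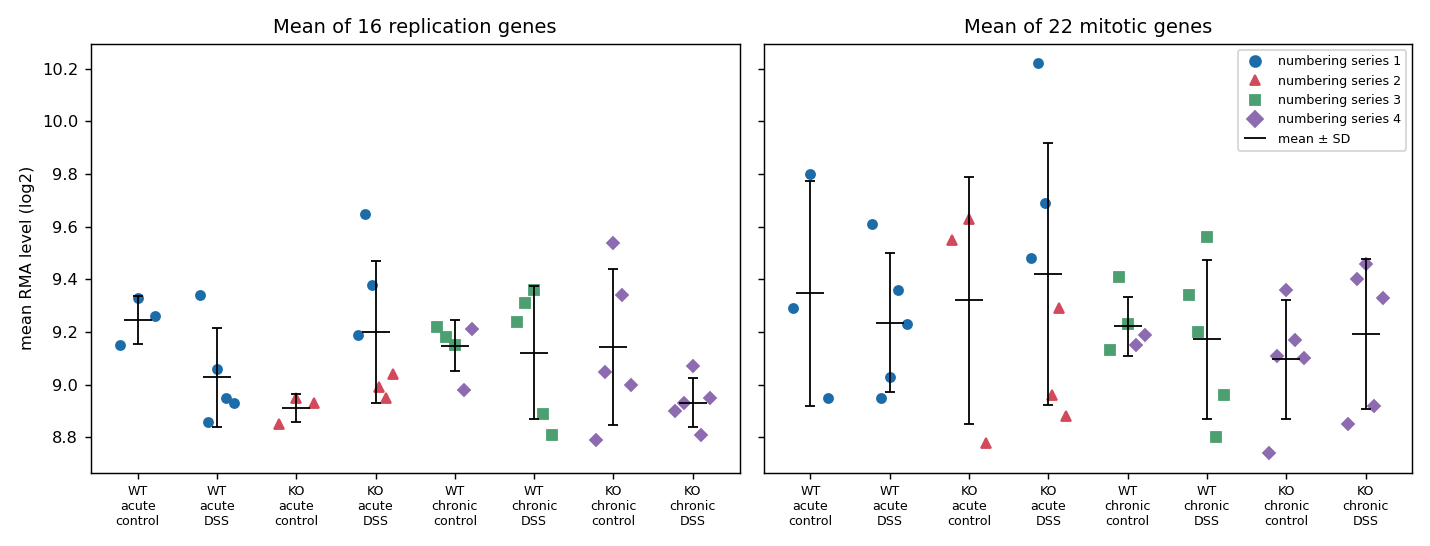
Mean RMA level (log2) of the 16 replication genes (left) and the 22 mitotic genes (right) in each of 37 arrays, by group, with the mean and SD of each group in black and the numbering series as colour and shape. In KO acute DSS the series 1 arrays (replication mean 9.19 to 9.65, mitotic mean 9.48 to 10.22) lie above the series 2 arrays (8.95 to 9.04 and 8.88 to 9.29).

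Within groups the members moved together. Over 37 arrays, the deviations of 2 members from their group means had a median Pearson's r of 0.74, and all 703 pairs were positive, from 0.22 to 0.98. Among mitotic genes the median was 0.92 and among replication genes 0.74, while pairs of a replication and a mitotic gene had a median of 0.58. The points share array, normalization and tissue make-up, so these correlations are a description. Because members vary together, counts of members with the same sign below are not counts of separate observations. Ccna2, the cyclin A2 gene, and Kif20a, a motor of cytokinesis, followed the mitotic mean most closely (r = 0.98 each), and Mcm5 followed the replication mean most closely (r = 0.95). Birc5, the survivin gene of the chromosomal passenger complex, was the loosest mitotic member (r = 0.81 with the mitotic mean). Cdc6, the loader of the Mcm ring, was the loosest member of all (r = 0.70 with the replication mean and 0.34 with the mitotic mean). Rrm1, the large subunit of ribonucleotide reductase, had r = 0.93 for the replication mean and 0.83 for the mitotic mean, the highest mitotic value of a replication gene. Tyms, a thymidylate synthase, and Tk1, a thymidine kinase, stood between the classes. Their r was 0.72 each for the replication mean, and 0.78 (Tyms) and 0.73 (Tk1) for the mitotic mean.

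**Figure D3:**
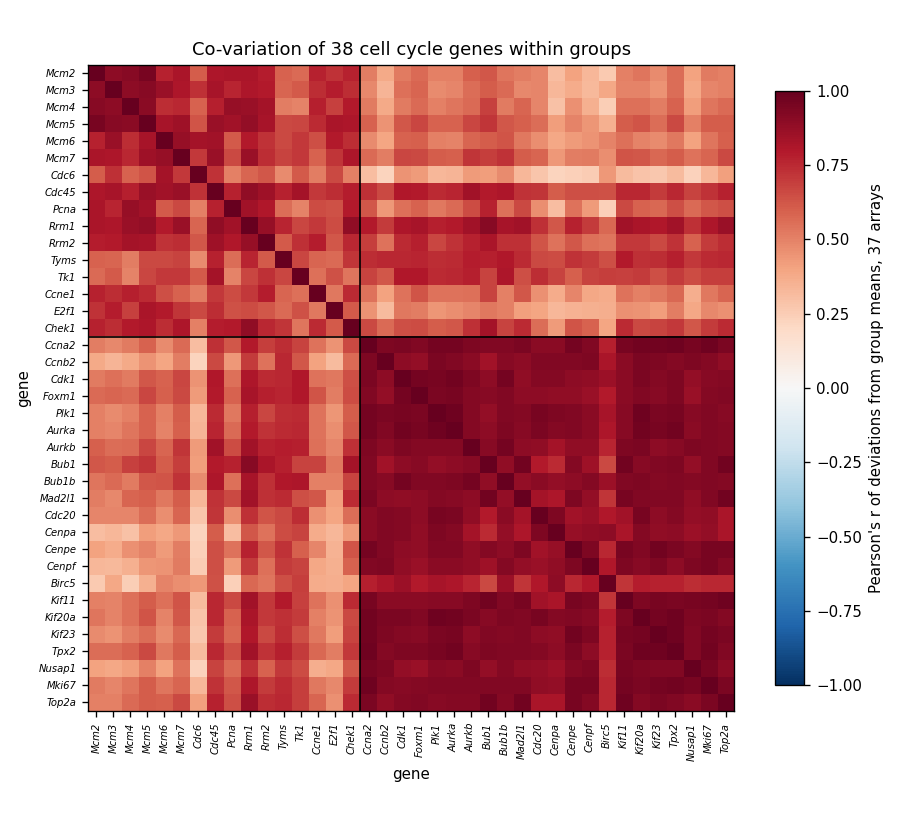
Pearson's r between the deviations of each pair of the 38 members from their group means over 37 arrays, with replication genes before and mitotic genes after the black lines. The mitotic block (median 0.92) is more uniform than the replication block (median 0.74), and the blocks that cross them have a median of 0.58.

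Genes of the same pathways outside the set also followed the members. Their r with the mean of the 38 members was above 0.5 for 24 of 24 other spindle and cytokinesis genes (highest Prc1, 0.97), 24 of 25 other kinetochore and checkpoint genes, 21 of 22 homologous repair genes and 22 of 25 polymerase and fork genes. Of all 19900 genes outside the set, 5.85% had r above 0.5. Zwint, a kinetochore gene, had r = -0.05 and Pttg1, the securin gene, had r = -0.36. Among 15 genes known as brakes on the cycle, Cdkn2c (0.82), Cdkn3 (0.78) and Ccng1 (0.56) varied with the members, while Btg1 had the lowest r, -0.46. Over 37 arrays r of a marker list with the member mean was 0.34 for the crypt base list, -0.06 for epithelium, 0.07 for leukocytes, 0.24 for monocytes and macrophages and 0.22 for fibroblasts. Without the 2 farthest arrays of each list these became 0.20, -0.22, 0.25, 0.31 and 0.35, so the order of the lists rests on few arrays. For the replication mean the highest was 0.45, for the monocyte and macrophage list, and its r with fibroblasts was 0.43. Without the 2 farthest arrays of each list these became 0.47 and 0.50. The lowest was -0.32, for a list of mature colonocyte markers, and r with epithelium was -0.24. Without the 2 farthest arrays of each list those became -0.42 and -0.34.

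Acute DSS in wild-type colon was accompanied by lower levels of 4 of the 38 members, all of them replication genes. Tyms, the thymidylate synthase that makes the thymine nucleotide, read 9.64, 10.11 and 9.81 in the 3 WT acute controls and 9.41, 9.08, 9.06, 9.44 and 9.35 in the 5 DSS animals. Every DSS array lay below every control. The difference was -0.59 ± 0.13 on the log2 scale (SE), with an adjusted p of 8.28e-04 (limma, Benjamini-Hochberg over 19938 genes).

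Chek1, the kinase that answers stalled replication forks, read 7.93, 7.98 and 8.03 in the controls and 7.85, 7.16, 7.41, 7.37 and 7.31 under DSS. Here too the groups did not overlap, although DSS replicate 1 came close to the controls. Its difference was -0.56 ± 0.19 (SE; limma adjusted p = 0.0196). Mcm7, a ring subunit, read 10.04, 10.19 and 10.41 against 10.06, 9.64, 9.60, 9.89 and 9.57, a difference of -0.46 ± 0.17 (SE; limma adjusted p = 0.0276), and DSS replicate 1 lay within the range of the controls. Cdc45 read 8.16, 8.43 and 8.18 against 8.17, 7.90, 7.92, 7.89 and 7.78, a difference of -0.33 ± 0.12 (SE; limma adjusted p = 0.0332), again with DSS replicate 1 among the controls.

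Those 4 genes are 10.5% of the members, and 21.8% of all 19938 genes were lower in this comparison (41.2% changed in either direction). E2f1, an E2F activator, did not overlap between the groups either (8.13 to 8.26 in controls, 7.72 to 8.07 under DSS), but its difference of -0.27 ± 0.13 (SE) had a limma adjusted p of 0.112. With Tyms and Chek1 that made 3 of 38 members with every DSS array below every control, against 21.4% of all genes. The median difference of the replication members was -0.21, 14 of 16 were negative, and the median over all genes was 0.01. Rrm2, the small subunit of ribonucleotide reductase, and Mcm4 were the exceptions, at 0.26 ± 0.28 and 0.11 ± 0.19 (SE).

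None of the 22 mitotic members passed in WT acute DSS by limma, and 0 had an unadjusted p under 0.05. Mki67, the proliferation antigen Ki-67, read 10.63, 10.93 and 10.13 in controls and 10.94, 10.26, 10.32, 10.57 and 10.54 under DSS. The arrays were fully mixed, and the difference was -0.04 ± 0.23 (SE). The widest mitotic differences were those of Nusap1, a microtubule binder, at -0.44 ± 0.27, and Aurkb, the Aurora B kinase, at -0.40 ± 0.22 (SE; limma adjusted p = 0.192 and 0.147). Standard errors of the mitotic members lay between 0.19 and 0.34, above the 0.10 of the median gene, and their 95% intervals reached from -0.99 to 0.82. Those bounds are the outermost over the 22 genes, and differences inside a gene's own interval are not excluded by these arrays.

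These calls rest on few controls. Without WT acute control replicate 2, whose mitotic mean was 9.80 against 9.29 and 8.95 in its fellows, 1 member passed, and the median difference of the 38 went from -0.13 to 0.01. Without WT acute control replicate 3, 1 member passed as well. Tyms was the member that passed in each of these cases. Without DSS replicate 1, 7 passed. Without DSS replicate 2, 3 or 5, 2 passed.

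Marker lists moved in the same comparison. Among the 10 crypt base markers measured, which include Wnt targets, 9 fell, and the mean of the list was 9.17 to 9.26 in WT acute controls and 8.06 to 8.49 under DSS. Of 11 epithelium genes, 8 fell, with a list mean of 12.18 to 12.21 in controls and 10.54 to 12.11 under DSS. Of 5 leukocyte genes, 4 rose (list mean 8.86 to 9.42 in controls and 9.27 to 11.60 under DSS), and of 7 fibroblast genes 5 rose (10.65 to 10.83 and 11.28 to 12.33). DSS replicates 1 and 3 had the lowest epithelium means, 11.38 and 10.54, and their mitotic means of 9.61 and 9.03 were the highest and the next to lowest of the 5. The part of these lists in the members' levels was not tested.

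Other replication genes fell as well. Of 25 replicative polymerase and fork genes, 12 were lower and none was higher in WT acute DSS (median difference -0.36). Rfc3 (-0.88 ± 0.13) and Rfc4 (-0.74 ± 0.21), subunits of the loader that sets the Pcna clamp on DNA, and Prim1 (-0.86 ± 0.18), the primase that starts each fragment, had the largest differences (SE; limma adjusted p = 3.05e-06, 0.00569 and 2.78e-04). Of 18 origin genes 7 were lower and none higher, led by Cdt1 (-0.57 ± 0.13) and Orc1 (-0.48 ± 0.19), which load the Mcm ring, and Gins4 (-0.44 ± 0.12), a helicase subunit (SE). Of 24 other spindle and cytokinesis genes none passed by limma, and 0 had an unadjusted p under 0.05. Of 25 other kinetochore genes 4 were lower and 1, Zwint (0.49 ± 0.15, SE), was higher.

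Factors upstream of S phase and brakes also passed in places in WT acute DSS. Of 18 genes of the E2F, MYB and DREAM complexes 5 were lower and 1 was higher, with E2f5 at -0.63 ± 0.13, Lin37 at -0.53 ± 0.10 and E2f3 at -0.52 ± 0.10 (SE). Of 13 G1 genes 3 were lower, with Ccnd2, the cyclin D2 gene, at -0.89 ± 0.15 (SE; limma adjusted p = 2.92e-05). Of 15 brakes 5 were lower and 2 higher, led by Cdkn2b, an inhibitor of the cyclin D kinases, at -1.29 ± 0.21 (SE; limma adjusted p = 1.36e-05). All of these shares stand beside the 21.8% of genes at large that were lower.

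**Figure D4:**
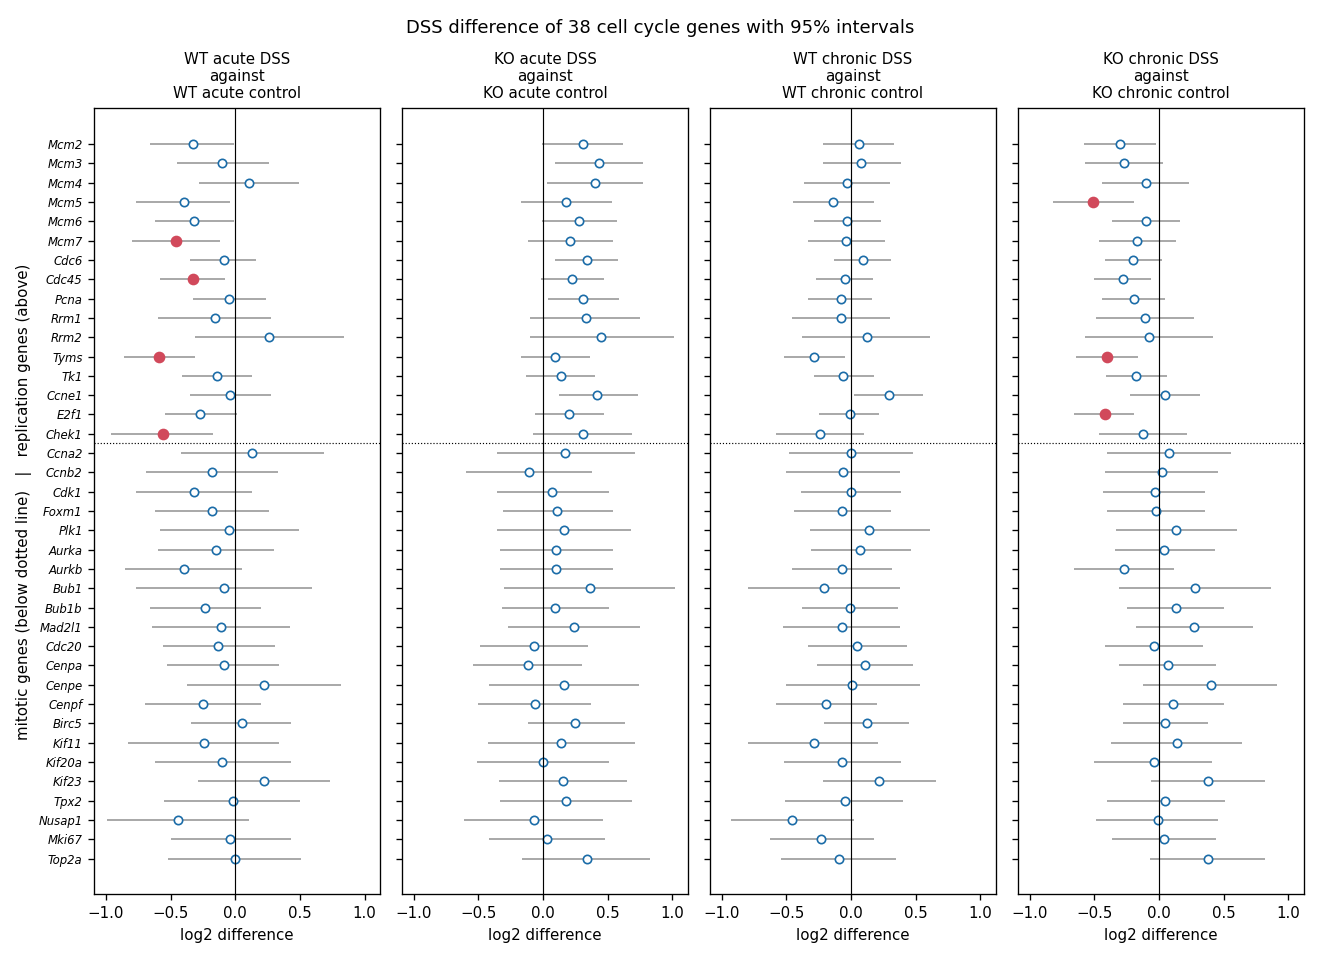
Difference between DSS and control (log2, horizontal axes) for each of 38 members in the 4 pairs of groups, as limma estimates with 95% intervals. Filled red points passed an adjusted p of 0.05: Mcm7, Cdc45, Tyms and Chek1 in WT acute DSS, Mcm5, Tyms and E2f1 in KO chronic DSS, and none in the other panels. All 16 replication genes lie above 0 in KO acute DSS.

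In knockout colon no member passed under acute DSS, where 1.12% of all genes did. Differences of all 16 replication genes were positive, from 0.09 to 0.45 with a median of 0.31, and 5 members had an unadjusted p under 0.05 (limma). The median over all genes was 0.00. Cdc6 read 7.54, 7.37 and 7.66 in the 3 KO acute controls and 7.85, 7.99, 7.89, 7.76, 7.80 and 7.87 in the 6 DSS animals. No DSS array was as low as any control, and the difference was 0.34 ± 0.12 (SE; limma adjusted p = 0.156). Ccne1, the cyclin E1 gene, read 8.22, 8.25 and 8.39 against 8.67, 9.10, 8.93, 8.53, 8.44 and 8.58, a difference of 0.42 ± 0.15 (SE; limma adjusted p = 0.143). Mcm3 read 8.19, 8.43 and 8.38 against 8.53, 9.16, 9.02, 8.59, 8.57 and 8.71, a difference of 0.43 ± 0.17 (SE; limma adjusted p = 0.186). These 3 were the members whose KO acute DSS arrays all lay above the KO acute controls, 7.89% of the set against 2.79% of all genes.

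The 6 KO acute DSS animals were split by their numbering series. Mki67 read 10.84, 11.52 and 10.97 in replicates 1 to 3 (series 1) and 10.28, 10.62 and 10.12 in replicates 4 to 6 (series 2). Bub1, a spindle checkpoint kinase, read 9.27, 10.19 and 9.40 against 8.30, 8.42 and 8.34. In 29 of 38 members (19 of 22 mitotic and 10 of 16 replication genes) all 3 series 1 arrays were above all 3 series 2 arrays, as were 16.4% of all genes. The mean of the 38 genes was 9.63 ± 0.32 in series 1 and 9.02 ± 0.11 in series 2 (SD, n = 3 each). Cdc6 was less split than most, with 7.85 to 7.99 against 7.76 to 7.87.

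All KO acute controls were of series 2, so within that series the DSS comparison could be made without the split. The median difference of the 38 genes was then -0.17 instead of 0.17, and that of the mitotic genes -0.27, with 1 of 22 positive. The replication genes kept a positive median, 0.07, with 12 of 16 positive, and 0 members passed (limma). With the series as a covariate over all arrays the medians were the same. The mean of the crypt base list was 9.05 to 9.23 in KO acute controls and 8.41 to 8.97 under DSS, and 0 of its 10 genes passed (limma; 5 had an unadjusted p under 0.05).

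Between the acute controls the difference of KO from WT was negative for all 16 replication genes, with a median of -0.35. No member passed by limma, and 1.12% of all genes did. Unadjusted, 6 members had a limma p under 0.05, and the share of all genes at that threshold is not given here. For 13 of the 16 replication genes all 3 KO arrays lay below all 3 WT arrays, which held for 15.0% of all genes, and for 0 of the 22 mitotic genes. Pcna, the sliding clamp, read 11.19, 11.12 and 11.11 in WT and 10.65, 10.84 and 10.70 in KO. Its difference was -0.41 ± 0.16 (SE; limma adjusted p = 0.224). Mitotic genes showed no common direction, with 9 of 22 positive and a median of -0.03. WT acute controls were all of series 1 and KO acute controls all of series 2, so genotype and numbering series cannot be told apart here. With the series as a covariate, which rests on the split of the KO acute DSS animals alone, the median of the replication genes was 0.04, with 9 of 16 positive, and that of the mitotic genes 0.79, with 22 of 22 positive (0.42 over the 38).

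Under acute DSS 1 member was higher in KO than in WT colon, while 15.8% of all genes were higher and 30.9% changed. That gene was Cdc6, which read 7.37 to 7.78 in the 5 WT arrays and 7.76 to 7.99 with a median of 7.86 in the 6 KO arrays. Only WT replicate 2 reached into the range of the KO arrays. The difference was 0.28 ± 0.10 (SE; limma adjusted p = 0.0357), 1.22-fold. The call was lost without KO acute DSS replicate 1, 2 or 3 or WT acute DSS replicate 3, 4 or 5 (adjusted p 0.0510 to 0.104, limma). Differences of 34 of the 38 members were positive, with a median of 0.20, against 0.02 over all genes. Without the arrays with Y-linked signal 4 members passed, Cdc6, Mcm6, Mcm7 and Tyms.

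Within series 1, where 3 KO and 5 WT acute DSS arrays could be compared, all 38 differences were positive and their median was 0.48. Cdc45, Mcm6, Tyms, Cenpf, Nusap1 and Top2a were higher in KO, 6 of 38 members, against 6.62% of all genes. Top2a, the topoisomerase that untangles sister chromatids, read 10.51, 11.12 and 10.70 in the KO arrays and 10.52, 9.79, 9.87, 10.19 and 9.97 in WT. WT replicate 1 lay at the low end of the KO range, and the difference was 0.71 ± 0.19 (SE; limma adjusted p = 0.0436). Cenpf, a kinetochore gene, differed by 0.69 ± 0.18 and Cdc45 by 0.38 ± 0.10 (SE; limma adjusted p = 0.0378 and 0.0413). With the series as a covariate over all 37 arrays the differences were the same and 21 members passed, 9 of 16 replication and 12 of 22 mitotic genes, against 16.9% of all genes higher. Cdc6 was 0.33 higher within series 1, with an adjusted p of 0.0567 (limma). No KO DSS animal of series 2 had a WT animal of its own series beside it.

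Other pathway lists were compared too. In KO acute DSS 9 of 25 polymerase and fork genes, 8 of 22 homologous repair genes and 4 of 18 origin genes were higher than in WT acute DSS and none of them was lower, where 15.8% of all genes were higher. These counts pool both numbering series of the KO animals. Within series 1 they were 10, 8 and 4, where 6.62% of all genes were higher. Rfc3 differed by 0.48 ± 0.10 and Gmnn, the geminin gene that blocks a new round of loading, by 0.44 ± 0.08 (SE; limma adjusted p = 7.01e-04 and 9.04e-05). Of 24 other spindle genes none was higher and 1, Fam83d, was lower (-0.48 ± 0.14, SE), while within series 1 there were 2 higher and 0 lower. Beside this, 7 of 10 crypt base genes and 6 of 11 epithelium genes were higher in KO, and all 7 fibroblast genes were lower. Means of the crypt base list were 8.06 to 8.49 in WT acute DSS and 8.41 to 8.97 in KO acute DSS. The part of these lists was not tested.

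The effect of acute DSS differed by genotype for 3 members, all of which fell in WT. The interaction, the KO difference minus the WT difference, was 0.87 ± 0.27 for Chek1, 0.68 ± 0.19 for Tyms and 0.55 ± 0.17 for Cdc45 (SE; limma adjusted p = 0.0319, 0.0176 and 0.0339). Tyms read 9.33, 9.51 and 9.46 in KO acute controls and 9.60, 9.86, 9.71, 9.30, 9.45 and 9.25 in KO acute DSS. Of the 3 KO controls, 2 lay above every WT acute DSS animal (9.06 to 9.44) and all 3 lay below every WT control. Chek1 read 7.17, 7.62 and 7.51 in KO acute controls and 7.90, 8.46, 7.83, 7.40, 7.49 and 7.36 in KO acute DSS. Cdc45 read 7.85, 8.05 and 7.87 against 8.18, 8.48, 8.28, 7.97, 8.02 and 7.95. The interaction of each thus holds a low KO control as well as a fall in WT.

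These 3 are 7.89% of the members, and 6.51% of all genes had a positive interaction that passed (12.3% in either direction), a share near that of the members. All 16 replication genes had a positive interaction, with a median of 0.51, and Mcm2 (0.64 ± 0.22), Mcm6 (0.60 ± 0.21) and Mcm7 (0.67 ± 0.23) came close to passing (SE; limma adjusted p = 0.0513, 0.0536 and 0.0546). No mitotic gene passed, and 0 had an unadjusted p under 0.05 (limma); their median was 0.21. With the numbering series as a covariate 0 members passed, the median of the 38 was 0.01, that of the replication genes 0.37 and that of the mitotic genes -0.17. Chek1 was then at 0.55, Tyms at 0.48 and Cdc45 at 0.38 (limma adjusted p = 0.176, 0.0976 and 0.158). In a fit of the 4 acute groups alone Mcm6 was the 1 member that passed. Without KO acute control replicate 1 or WT acute control replicate 2 no member passed, and without KO acute control replicate 3 or WT acute control replicate 3 only 1 did. Without WT acute DSS replicate 1 or KO acute DSS replicate 4 or 6, 6 passed.

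**Figure D5:**
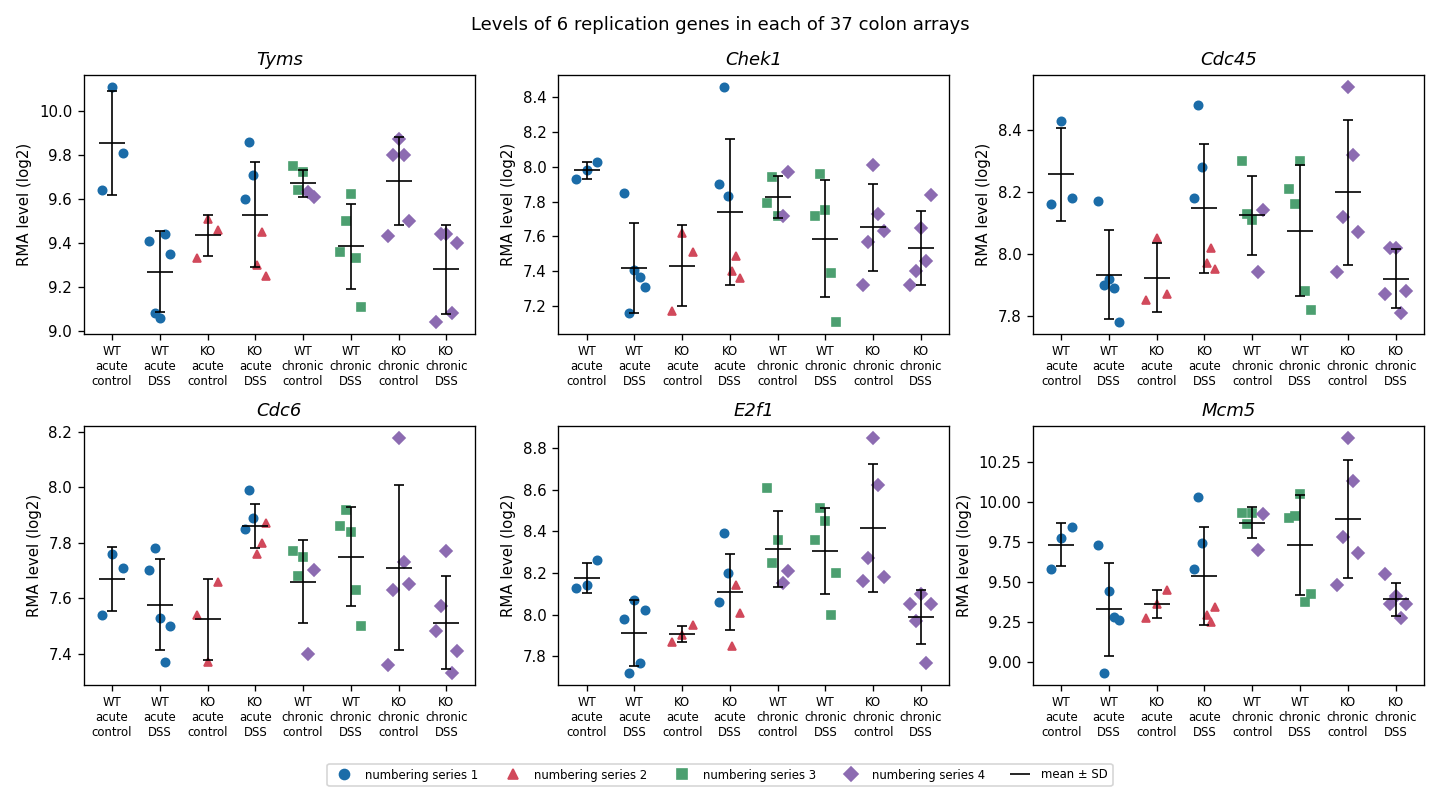
RMA level (log2) of 6 replication genes in each of 37 arrays by group, with group mean and SD in black and numbering series as colour and shape. Each panel has its own vertical scale. Tyms and Chek1 are lower in all 5 WT acute DSS arrays than in the 3 WT acute controls, and E2f1 is lower in all 5 KO chronic DSS arrays than in the 5 KO chronic controls.

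In the chronic phase no member passed in wild-type colon (limma; 2 had an unadjusted p under 0.05), where 14.4% of all genes did. Those were Tyms, at -0.29 ± 0.12, and Ccne1, at 0.29 ± 0.13 (SE; limma adjusted p = 0.0991 and 0.148). All WT chronic DSS animals were of series 3 and 2 of the 5 controls of series 4. With the series as a covariate Ccne1 passed (0.43 ± 0.14, SE; limma adjusted p = 0.0332), and within series 3 it did not (adjusted p = 0.0512, limma). In a fit of the 2 groups alone Tyms passed (limma adjusted p = 0.0332). The 5 WT chronic DSS animals were more spread than their controls, with a mean of the 38 genes from 8.84 to 9.47 against 9.08 to 9.31. Replicates 4 and 5, at 8.84 and 8.90, lay below every control, and replicate 3, at 9.47, lay above every control. Leukocyte markers rose in this comparison for 5 of 5 genes, while crypt base genes fell for 4 of 10.

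In knockout colon 3 replication genes were lower under chronic DSS. E2f1 read 8.16, 8.27, 8.85, 8.62 and 8.18 in the 5 KO chronic controls and 8.05, 7.97, 8.10, 7.77 and 8.05 in the 5 DSS animals. No arrays overlapped, and the difference was -0.42 ± 0.12 (SE; limma adjusted p = 0.0208), 1.34-fold lower. E2f1 was the 1 member of 38 with all DSS arrays below all controls, against 5.52% of all genes. Tyms read 9.43, 9.80, 9.87, 9.80 and 9.50 against 9.04, 9.44, 9.44, 9.08 and 9.40, where 2 DSS arrays reached just above the lowest control. Its difference was -0.40 ± 0.12 (SE; limma adjusted p = 0.0303). Mcm5 read 9.48, 9.78, 10.40, 10.13 and 9.68 against 9.55, 9.36, 9.41, 9.27 and 9.36, with DSS replicate 1 above the lowest control, and differed by -0.51 ± 0.15 (SE; limma adjusted p = 0.0388).

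The 3 are 7.89% of the members, while 5.47% of all genes were lower there and 7.94% changed in either direction. Of the replication genes 15 of 16 had a negative difference, with a median of -0.18, and of the mitotic genes 16 of 22 had a positive one, with a median of 0.06. Over all genes the median was -0.04. No mitotic gene passed, and 0 had an unadjusted p under 0.05 (limma). Mean levels of the replication genes were 8.79 to 9.54 in the KO chronic controls and 8.81 to 9.07 under DSS, so the controls were the more spread group. No member passed without KO chronic control replicate 3 or 4 or KO chronic DSS replicate 4, nor in a fit of the 2 groups alone, where the adjusted p were 0.0520 to 0.0650 (limma). Of the other pathway lists, Ccnd2 (-0.54 ± 0.13, SE; limma adjusted p = 0.00961) was the 1 G1 gene that passed, and no polymerase, origin or repair gene did.

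Between genotypes no member passed in the chronic phase (limma). In the controls 0.100% of all genes passed and no member had an unadjusted p under 0.05. Under chronic DSS 2.48% of all genes passed by adjusted p. Unadjusted, 5 members had a limma p under 0.05 under chronic DSS, with no share of all genes given at that threshold. There the differences of all 16 replication genes were negative (KO minus WT), from -0.37 to -0.05 with a median of -0.15, and the mitotic median was -0.02. The 3 retinoblastoma family genes that hold E2F factors back were higher in KO chronic DSS: Rbl1 by 0.45 ± 0.10, Rb1 by 0.36 ± 0.09 and Rbl2 by 0.29 ± 0.06 (SE; limma adjusted p = 0.0179, 0.0298 and 0.0149). Rbl1 was also higher in KO under acute DSS (0.51 ± 0.10, SE; limma adjusted p = 2.28e-04), where 34 of the 38 members had a positive difference. All WT chronic DSS arrays were of series 3 and all KO chronic DSS arrays of series 4, so genotype and numbering series cannot be told apart under chronic DSS. With the series as a covariate, which rests on the WT chronic controls alone for this pair, the replication median was -0.07 with 13 of 16 negative, and none of the 3 retinoblastoma family genes passed (limma adjusted p = 0.463 to 0.730). The interaction of genotype and chronic DSS passed for no member (1 had an unadjusted p under 0.05) and for 0.421% of all genes.

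The chronic and the acute DSS difference were also set against each other within each genotype. In WT no member passed (limma; 0 had an unadjusted p under 0.05), while 17.0% of all genes did, and the median of the replication genes was 0.26. In KO no member passed by limma, and 0.0100% of all genes did. Unadjusted, 9 members had a limma p under 0.05, and the share of all genes at that threshold is not given here. For all 16 replication genes of the KO animals the chronic minus the acute DSS difference was negative, from -0.70 to -0.31 with a median of -0.50. The acute differences were positive and most of the chronic ones negative, so for most of these genes the sign changed in the fit without the series. With the series as a covariate the acute KO differences of the replication genes had a median of 0.07, with 12 of 16 positive. The chronic minus acute median of the replication genes in that fit is not given here. The mitotic median was 0.00 with 11 of 22 positive. With the series as a covariate the median of the 38 turned from -0.13 to 0.15.

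More than 1 cluster carried the symbol for 3 members. Pcna had clusters with means of 11.04 and 11.02 and nearly equal differences, such as -0.41 ± 0.16 for each between KO and WT acute controls (SE). Tk1, the thymidine kinase of S phase, had clusters at 9.34, which was used, and at 8.60, and they gave -0.14 ± 0.13 and 0.03 ± 0.15 in WT acute DSS (SE). Top2a had a dim cluster at 5.36 besides the one used, at 9.97, and in KO acute DSS they gave 0.04 ± 0.11 and 0.34 ± 0.24 (SE). Values of Tk1 and Pcna are uncertain to the extent that near-identical copies share probes, which was not tested.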

How the data were processed

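Labelled RNA of 37 colons was read on 1 array each, with no sequencing depth. The authors deposited RMA log2 values, per the submitters' processing notes, that is signals background-corrected, quantile-normalized and summarised per transcript cluster. The log base is not given in the sources used here and was read as log2 from the range. RMA forces arrays to 1 distribution, so changes shared by most genes cannot be seen. Of 35511 clusters 21789 carry 1 gene symbol in the platform annotation, and the brightest of a gene gave 19938 genes. One mean per group was fitted over all arrays with limma 3.58.1 (lmFit, eBayes) in R 4.3.3, with 12 two-sided contrasts, Benjamini-Hochberg adjustment over all genes of each contrast and a threshold of 0.05. The procedure was tested on simulated data.

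The members and all lists were chosen with earlier results of these data known. Every member is named as needed; of each other pathway list at most the 3 largest passing differences are named. Whether animals shared cages or litters is not given, so p-values measure the spread between these animals. Shares of all genes that passed use the adjusted p. Shares of all genes at an unadjusted p under 0.05 are not given. Promoter windows come from RefSeq (GRCm38.p6), the first listed per gene. Alternatives were a trended robust prior, no dim genes, cyclic loess, array weights, the numbering series as covariate or in isolation, averaged clusters, only the groups compared, arrays with Y-linked signal left out, and each array left out in turn.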

Additional observations from a re-analysis of the deposited data

Results flagged for a closer look

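Each member and some means over members were checked within each group of 5 or 6 arrays. In 5 of these 252 checks 1 array stood far from its fellows, fewer than the about 1 in 20 that chance alone gives. The checks share arrays and are not independent. Mcm2 read 9.56 in KO chronic DSS replicate 1, above 9.31 to 9.36 in the others. WT chronic control replicate 4 was the lowest of its group for Mcm3 (8.41, next 8.63), for Cdc6 (7.40, next 7.68) and for the mean of the replication genes (8.98, next 9.15). Cdc20, the activator of the anaphase-promoting complex, read 9.03 in WT chronic control replicate 2, above 8.54 to 8.68 in the others.

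The acute DSS difference differed between KO and WT by the interaction test for Cdc45 (0.55), Tyms (0.68) and Chek1 (0.87); with the numbering series as a covariate none of them passed.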

How the results depend on the processing

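No paired analysis was possible because the titles carry animal numbers and no replicate number shared by groups. Array weights, which give less weight to arrays far from their group, raised the number of members that passed: 11 in WT acute DSS, 6 in KO acute DSS, 1 in WT chronic DSS, 5 in KO chronic DSS, 5 between acute controls, 6 between genotypes under acute DSS, 14 for the acute interaction, and 2 (WT) and 9 (KO) for the chronic against the acute difference. The share of all genes that passed with array weights is not given here, so those counts do not set the members against genes at large. With the numbering series as a covariate 21 members passed between genotypes under acute DSS, 0 for the acute interaction and 1 in WT chronic DSS. Within series 1, 6 passed between genotypes under acute DSS, and without the arrays with Y-linked signal 4 did. Fits of the compared groups alone gave 0 in KO chronic DSS, 1 in WT chronic DSS, 2 between acute controls and 1 for the acute interaction. Without the dimmest 33.33% of genes 3 passed between genotypes under acute DSS and 6 for the acute interaction. Leaving out 1 array gave 1 to 7 members in WT acute DSS, 0 to 3 in KO chronic DSS, 0 to 5 between genotypes under acute DSS and 0 to 6 for the acute interaction. Leaving out 1 array moved the median difference of the 38 between -0.27 and 0.01 in WT acute DSS and between -0.11 and 0.05 in KO chronic DSS. It changed sign in WT acute DSS to 0.01 without WT acute control replicate 2, and in KO chronic DSS to 0.04 without DSS replicate 1 and to 0.05 without DSS replicate 4 or control replicate 3. Mcm7 lost its call in WT acute DSS under cyclic loess (-0.37, limma adjusted p = 0.0698), under which the median difference of all genes lay between -0.03 and 0.02 in the 12 comparisons. Groups of 3 arrays and the animal-to-animal spread of the mitotic genes limit the precision. Where no mitotic gene passed, that is not evidence of equal levels.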
